A study of Mus musculus with 4 samples.

Results

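Genes of the amino acid response that the transcription factor ATF4 controls, and the cytosolic aminoacyl-tRNA synthetases, were followed in primary mouse Leydig cells that had received small interfering RNA (siRNA) against Trps1. The set holds 42 genes given by symbol, 26 of them ATF4 response genes and 16 of them tRNA synthetases. No measured value enters the rule that lists them, but they were chosen with earlier results of these data known. Matched through the GRCm38 annotation, these symbols were carried by 43 of the 55812 rows of the deposited count table, since Ddit3 is the name of 2 annotated genes. The second Ddit3 row had 0 reads in every sample. All other 42 rows passed the filter on low counts, which left 14701 genes, and no sample had fewer than 78 reads for any of them.

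The cells were primary Leydig cells of the testis, and the labels give 6 months as the age of the mice. The compared groups were 2 samples with Trps1 siRNA and 2 with Negative siRNA, a control siRNA, so that cells of both groups carried an siRNA. The protein made from Trps1 is a transcriptional repressor with a zinc finger of the GATA family. No strain, dose, time after transfection or number of animals is given in the sources used here, and the labels do not tell whether samples with the same siRNA were independent cultures. The p-values therefore set the group difference only against the scatter of these samples, estimated in part from other genes, and that scatter may be technical.

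ATF4 is a basic leucine zipper protein whose translation rises when kinases that sense amino acid shortage, unfolded protein, viral RNA or lack of haem phosphorylate the initiation factor eIF2. As a dimer with C/EBP proteins and other partners it binds C/EBP-ATF response elements and raises genes of amino acid uptake, of serine, asparagine, proline and one-carbon synthesis, and of tRNA charging. The synthetases join each amino acid to its tRNA before protein synthesis, and several of them sit in a large multisynthetase complex. In the testis, Leydig cells make testosterone and lie between the seminiferous tubules.

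The libraries held 17844125 and 21597187 counted reads with Trps1 siRNA and 20116799 and 25852898 with Negative siRNA. Trps1 itself had 23.5 and 30.1 CPM (reads corrected for library size) with Trps1 siRNA, against 38.1 and 42.2 CPM with Negative siRNA, a log2 fold change of -0.58 ± 0.10 (standard error, SE; edgeR's quasi-likelihood test, adjusted p = 0.000351). Leydig markers were present in every library. Over 10 genes they summed to 7113 and 7623 CPM with Trps1 siRNA against 4536 and 4884 CPM with Negative siRNA. Of the 10, 8 were called higher, beside 5.24% of all genes tested, and Star and Insl3 were not called. Markers of macrophages, which live beside Leydig cells, moved the other way. Of 13 such markers 8 were called lower, beside 6.00% of all genes tested, and none was at 0 in any sample. These 13 summed to 2638 and 2078 CPM with Trps1 siRNA against 3110 and 3020 CPM with Negative siRNA. Smooth muscle markers summed to 59 and 62.8 CPM with Trps1 siRNA against 94.1 and 95.1 CPM with Negative siRNA. Of 4 tested smooth muscle markers 2 were called lower. Markers of Sertoli, germ and endothelial cells summed to less than 40 CPM per list in every library, with Fshr (Sertoli) and Tnp1 (germ) at 0 in all. Of 3 tested Sertoli markers Gata1 was called higher, at 22 and 21.8 CPM with Trps1 siRNA against 15.6 and 17.3 with Negative siRNA. In the germ and endothelial lists 0 were called. The part of these shifts in the changes below was not tested, and in bulk samples fewer cells of a type and less RNA per cell cannot be told apart.

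Of the 42 genes, 9 passed the test, 7 of them higher and 2 lower with Trps1 siRNA, and 33 did not. The genes that rose were Atf4, Ddit4, Slc7a11, Slc1a4, Stc2, Vldlr and the synthetase Mars, and those that fell were Chac1 and Psat1. Each of these changes was below 1.5-fold except that of Chac1, which fell to 0.65 of the control. Among all 14701 tested genes 11.2% were called in this comparison, 5.24% higher and 6.00% lower, against 21.4% of the 42. Of the ATF4 response genes 8 of 26 were called (30.8%, 6 higher and 2 lower), and of the synthetases 1 of 16 (6.25%). Whether these shares differ was not tested, and the genes were chosen with earlier results of these data known. The median log2 fold change was 0.12 for the ATF4 response genes and -0.03 for the synthetases, beside 0.002 for all genes tested. DESeq2 called 5 of the 42 higher and 1 lower, among 991 genes that it called in all, where edgeR called 1652. Without sample 2 of Trps1 siRNA the ATF4 response genes called were 3 higher and 0 lower, and without sample 2 of Negative siRNA 4 higher and 0 lower.

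In 30 of the 42 genes the groups did not overlap in CPM, 21 with both Trps1 siRNA samples above both controls and 9 with both below, which is 71.4%, beside 52.2% of all genes tested (26.0% higher and 26.1% lower). The ATF4 response genes were uneven, with 15 above, 3 below and 8 overlapping, and the synthetases even, with 6 above, 6 below and 4 overlapping. In sum over the 26 ATF4 response genes the samples had 2999 and 2924 CPM with Trps1 siRNA and 2741 and 2709 CPM with Negative siRNA. Over the 16 synthetases they had 2216 and 2177 CPM with Trps1 siRNA and 2156 and 2152 CPM with Negative siRNA. The sums of the ATF4 response genes did not overlap between groups, and neither did those of the synthetases, whose gap was narrower. The largest part of the first sum was Slc3a2, which was not called. Of these 16, 6 belong to the multisynthetase complex, Mars among them. These 6, which are not the whole complex, had 778 and 763 CPM with Trps1 siRNA against 723 and 733 with Negative siRNA. Mars alone had 192 and 179 against 150.4 and 152 CPM. The other 10 synthetases had 1437 and 1414 CPM with Trps1 siRNA against 1434 and 1418 with Negative siRNA, and overlapped.

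**Figure D1:**
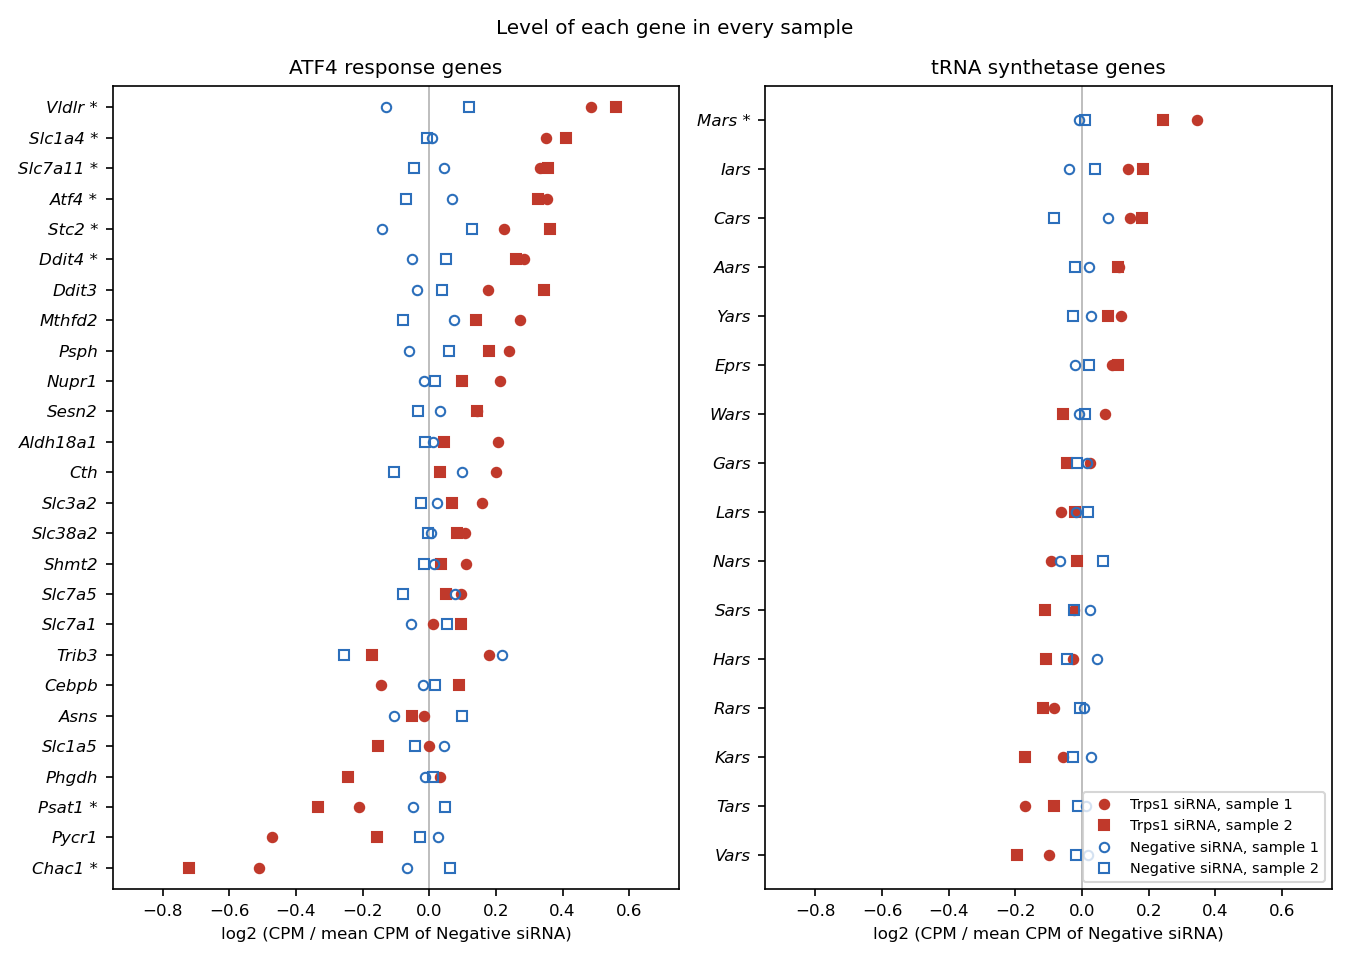
Level of each of the 42 genes in each sample, as the log2 ratio of its CPM to the mean CPM of the Negative siRNA samples, with ATF4 response genes on the left and tRNA synthetases on the right. Filled red points are Trps1 siRNA, open blue points Negative siRNA, circles sample 1 and squares sample 2, and an asterisk marks the 9 genes that passed the test. Red points lie right of the blue points at the top of each panel and left of them at the bottom, with a wider range for the ATF4 response genes than for the synthetases.

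Among 8 tested regulators Atf4 and Ddit4 rose, Chac1 fell and 5 did not pass the test. Atf4 (ENSMUSG00000042406, chromosome 15, 80255184 to 80257541, plus strand, GRCm38) had 4769 and 5687 reads, or 267 and 262 CPM, with Trps1 siRNA, against 4400 and 5105 reads, or 219 and 199 CPM, with Negative siRNA. The means were 264 ± 3.87 CPM with Trps1 siRNA and 209 ± 13.8 CPM with Negative siRNA (SD, n = 2 each). Both Trps1 siRNA samples lay above both controls, and the log2 fold change was 0.34 ± 0.06 (edgeR adjusted p = 0.000369). The call held in all 12 alternative fits, with adjusted p-values from 5.40e-07 to 0.0248. The Atf4 promoter is shown because Trps1 is a GATA-type factor and the start of this gene carries a GATA-like sequence. Such letters (AGATAA or TGATAA) were found in 21% of all genes with a RefSeq promoter. Binding of the Trps1 protein was not measured, and whether it acts on Atf4 was not tested. In the 250 bases before its RefSeq start (GRCm38.p6, chr15:80254934-80255183, plus strand), capitals mark TGATAA, and no C/EBP-ATF element was found there.

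Atf4: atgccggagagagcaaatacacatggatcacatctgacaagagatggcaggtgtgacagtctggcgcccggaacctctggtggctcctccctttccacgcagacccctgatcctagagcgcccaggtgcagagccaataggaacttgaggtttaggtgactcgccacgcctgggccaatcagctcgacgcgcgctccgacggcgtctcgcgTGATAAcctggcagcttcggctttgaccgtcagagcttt

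AGATAA or TGATAA, searched on both strands from 250 bases before to 50 after the start, was found in the promoters of 2 of the 32 members that have a RefSeq promoter, Atf4 and Ddit3 (6.25%), and in 21% of all 27025 genes with one. Ddit3, which encodes the pro-apoptotic factor CHOP, had 21.7 and 24.4 CPM with Trps1 siRNA against 18.7 and 19.7 CPM with Negative siRNA. Its groups did not overlap, but its log2 fold change of 0.27 ± 0.11 did not pass the test (edgeR adjusted p = 0.118). Ddit3 shares 68 exon bases with Mars on the opposite strand.

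Ddit4, which encodes REDD1, an inhibitor of the growth kinase mTORC1, had 165 and 162 CPM with Trps1 siRNA against 130.5 and 140.3 CPM with Negative siRNA. It rose by 0.27 ± 0.06 on the log2 scale (edgeR adjusted p = 0.0022). Without sample 1 of Negative siRNA the change was 0.21 and the call was lost, with an adjusted p of 0.096, the highest of a range that began at 2.36e-05. Chac1, an enzyme that degrades glutathione and is a known target of ATF4, fell while Atf4 rose, with 6.61 and 5.71 CPM with Trps1 siRNA against 9.0 and 9.84 CPM with Negative siRNA. It rested on few reads, 118 and 124 with Trps1 siRNA and 181 and 252 with Negative siRNA. Its log2 fold change of -0.62 ± 0.16 (edgeR adjusted p = 0.0105) was the largest in size among the 42. DESeq2 did not call Chac1 (0.0612), nor did edgeR once Negative siRNA sample 2 (0.0806) or Trps1 siRNA sample 2 (0.144) was left out, in a range over the 12 alternatives of 0.00172 to 0.144.

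The Chac1 promoter is shown as that of the gene that fell while holding a C/EBP-ATF element (letters TGATGNAA). The 250 bases before its RefSeq start (GRCm38.p6, chr2:119350992-119351241, plus strand) are given with capitals at the element, which lies on the opposite strand.

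Chac1: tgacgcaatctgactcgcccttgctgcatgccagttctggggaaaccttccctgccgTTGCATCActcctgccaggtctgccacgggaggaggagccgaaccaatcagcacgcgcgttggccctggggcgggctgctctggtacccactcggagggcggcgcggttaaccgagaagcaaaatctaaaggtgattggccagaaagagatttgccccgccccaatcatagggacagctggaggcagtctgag

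The other regulators did not pass the test. Nupr1, a small chromatin-associated stress protein, had 78.3 and 72.4 CPM with Trps1 siRNA against 66.8 and 68.4 CPM with Negative siRNA, without overlap. Sesn2, a leucine sensor that holds back mTORC1, had 42.5 CPM in both Trps1 siRNA samples against 39.4 and 37.6 CPM with Negative siRNA, also without overlap. Their log2 fold changes were 0.16 ± 0.07 for Nupr1 and 0.14 ± 0.08 for Sesn2 (edgeR adjusted p = 0.152 and 0.28). In Trib3, a pseudokinase that ATF4 and CHOP induce, the samples of both groups overlapped widely, with 7.45 and 5.84 CPM with Trps1 siRNA against 7.66 and 5.51 CPM with Negative siRNA. Cebpb, a leucine zipper partner of ATF4, also overlapped, at 108 and 127 CPM with Trps1 siRNA against 118 and 121 CPM with Negative siRNA, and it shares 312 exon bases with Tmem189 on the opposite strand. The log2 fold changes of Trib3 and Cebpb were 0.02 ± 0.19 and -0.03 ± 0.06 (edgeR adjusted p = 0.972 and 0.861).

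Among 9 enzymes of amino acid and one-carbon synthesis, Psat1 fell and 8 did not pass the test. Psat1, the aminotransferase of the middle step of serine synthesis, had 101 and 92.9 CPM with Trps1 siRNA against 113 and 121 CPM with Negative siRNA. Both Trps1 siRNA samples lay below both controls, and the log2 fold change was -0.28 ± 0.06 (edgeR adjusted p = 0.00313). Leaving out Negative siRNA sample 2 (adjusted p = 0.0922) or Trps1 siRNA sample 2 (0.0791) ended the call, with a range of 2.28e-05 to 0.0922 over the alternatives. edgeR, DESeq2 and limma voom called 0 of these 9 enzymes higher, where edgeR called 5.24% of all genes tested higher. Mthfd2 and Psph were higher at an unadjusted p under 0.05.

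The enzymes before and after Psat1 in the serine pathway did not pass the test. Phgdh, which opens the pathway, had 52 and 43 CPM with Trps1 siRNA against 50.5 and 51.3 CPM with Negative siRNA, so that a single Trps1 siRNA sample lay below the controls. Psph, which closes it, had 32.4 and 31.1 CPM with Trps1 siRNA against 26.3 and 28.6 CPM with Negative siRNA. Phgdh and Psph thus had log2 fold changes of opposite sign, -0.10 ± 0.08 and 0.20 ± 0.09 (edgeR adjusted p = 0.503 and 0.161). Psph shares 452 exon bases with Cct6a on the opposite strand.

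Mthfd2, a mitochondrial folate enzyme, had 68.1 and 62.1 CPM with Trps1 siRNA against 59.4 and 53.4 CPM with Negative siRNA, a log2 fold change of 0.21 ± 0.08 (edgeR adjusted p = 0.0787). Its groups did not overlap. Mthfd2 passed the test without sample 1 of Negative siRNA (0.0414) and with the sample number as a term (0.0246), in a range over the alternatives of 0.0246 to 0.521. Shmt2, which makes glycine and one-carbon units from serine in mitochondria, had 90.8 and 86.2 CPM with Trps1 siRNA against 84.9 and 83.2 CPM with Negative siRNA, a log2 fold change of 0.07 ± 0.06, and shares 32 exon bases with Ndufa4l2. Asns, which makes asparagine and is a much used reporter of ATF4 activity, had 29.7 and 29 CPM with Trps1 siRNA, both between the Negative siRNA values of 27.9 and 32.2 CPM (log2 fold change -0.04 ± 0.09, edgeR adjusted p = 0.856).

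Aldh18a1 and Pycr1, which open and close proline synthesis from glutamate, had log2 fold changes of 0.13 ± 0.08 and -0.30 ± 0.19 (edgeR adjusted p = 0.382 and 0.359). Pycr1 was low, with 4.37 and 5.43 CPM with Trps1 siRNA against 6.17 and 5.94 CPM with Negative siRNA. Cth, which makes cysteine from cystathionine, had 11.7 and 10.4 CPM with Trps1 siRNA against 10.9 and 9.45 CPM with Negative siRNA, with overlap. The changes of Aldh18a1, Pycr1 and Cth were in both directions, and each was less than its SE multiplied by 2.

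Of 7 amino acid transporters 2 rose and 5 did not pass the test. Slc1a4, a carrier of serine, alanine and cysteine, had 24.1 and 25.1 CPM with Trps1 siRNA against 19.0 and 18.8 CPM with Negative siRNA. The groups did not overlap, and Slc1a4 rose by 0.39 ± 0.10 on the log2 scale (edgeR adjusted p = 0.0136). The call ended with DESeq2 (0.0581) and on leaving out Negative siRNA sample 2 (0.068) or Trps1 siRNA sample 2 (0.125), in a range over the alternatives of 0.00547 to 0.125. Slc7a11, the cystine carrier that feeds glutathione synthesis, had 21.7 and 22.1 CPM with Trps1 siRNA against 17.8 and 16.7 CPM with Negative siRNA. It rose by 0.35 ± 0.11 on the log2 scale (edgeR adjusted p = 0.0379), and of the 9 calls this one was lost in the most alternatives. The call ended in 6 of the 12, namely DESeq2, no robust estimation and each of the 4 samples left out, in a range of 0.0246 to 0.218.

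The Slc7a11 promoter is shown because it holds a pair of C/EBP-ATF elements (letters TGATGNAA) before the start. The 250 bases before its RefSeq start (GRCm38.p6, chr3:50443614-50443863, minus strand) are given with both elements in capitals, the first on the strand of the gene and the second on the opposite strand.

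Slc7a11: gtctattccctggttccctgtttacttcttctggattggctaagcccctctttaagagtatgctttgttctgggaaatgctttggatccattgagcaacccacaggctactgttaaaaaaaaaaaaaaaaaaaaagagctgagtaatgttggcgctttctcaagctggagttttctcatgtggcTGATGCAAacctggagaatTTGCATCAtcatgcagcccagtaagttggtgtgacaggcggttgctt

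The most abundant transporters did not pass the test. Slc3a2, the heavy chain that carries Slc7a5 and Slc7a11 to the cell surface, had 755 and 709 CPM with Trps1 siRNA against 687 and 665 CPM with Negative siRNA. It was the most abundant member per length, at 199 CPM per kilobase of exon as the mean over all samples. Slc7a5, its partner for large neutral amino acids, had 366 and 355 CPM with Trps1 siRNA against 361 and 324 CPM with Negative siRNA, with overlap. Slc38a2, a carrier of small neutral amino acids, had 362 and 356 CPM with Trps1 siRNA against 337 and 335 CPM with Negative siRNA. The log2 fold changes of Slc3a2, Slc7a5 and Slc38a2 were 0.11 ± 0.06, 0.07 ± 0.06 and 0.10 ± 0.06 (edgeR adjusted p = 0.263, 0.522 and 0.336).

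Slc7a1, a carrier of arginine and lysine, and Slc1a5, a carrier of glutamine, had log2 fold changes of 0.05 ± 0.06 and -0.08 ± 0.07. The groups of both overlapped. Among these transporters edgeR, DESeq2 and limma voom called 0 lower, and 0 had a lower value at an unadjusted p under 0.05. For comparison, edgeR called 6.00% of all genes tested lower.

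The 2 remaining ATF4 response genes both rose. Vldlr, a receptor for lipoproteins and reelin, had 31.4 and 33.1 CPM with Trps1 siRNA against 20.5 and 24.4 CPM with Negative siRNA. Its log2 fold change of 0.52 ± 0.10 was the largest rise among the 42 (edgeR adjusted p = 0.000674), and the call held in all 12 alternatives, with changes of 0.40 to 0.65 and adjusted p-values of 2.17e-06 to 0.0203. Both Vldlr samples with Trps1 siRNA lay above both controls. Stc2, a secreted glycoprotein, had 157 and 173 CPM with Trps1 siRNA against 122 and 147 CPM with Negative siRNA. The log2 fold change of Stc2 was 0.29 ± 0.07 (edgeR adjusted p = 0.0165). The gap between the lower Trps1 siRNA sample and the higher control was narrow, and the call was lost without sample 1 of Negative siRNA (0.16, adjusted p = 0.258) or without sample 2 of Trps1 siRNA (0.22, adjusted p = 0.273). The range of its adjusted p over the alternatives was 2.73e-06 to 0.273.

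**Figure D2:**
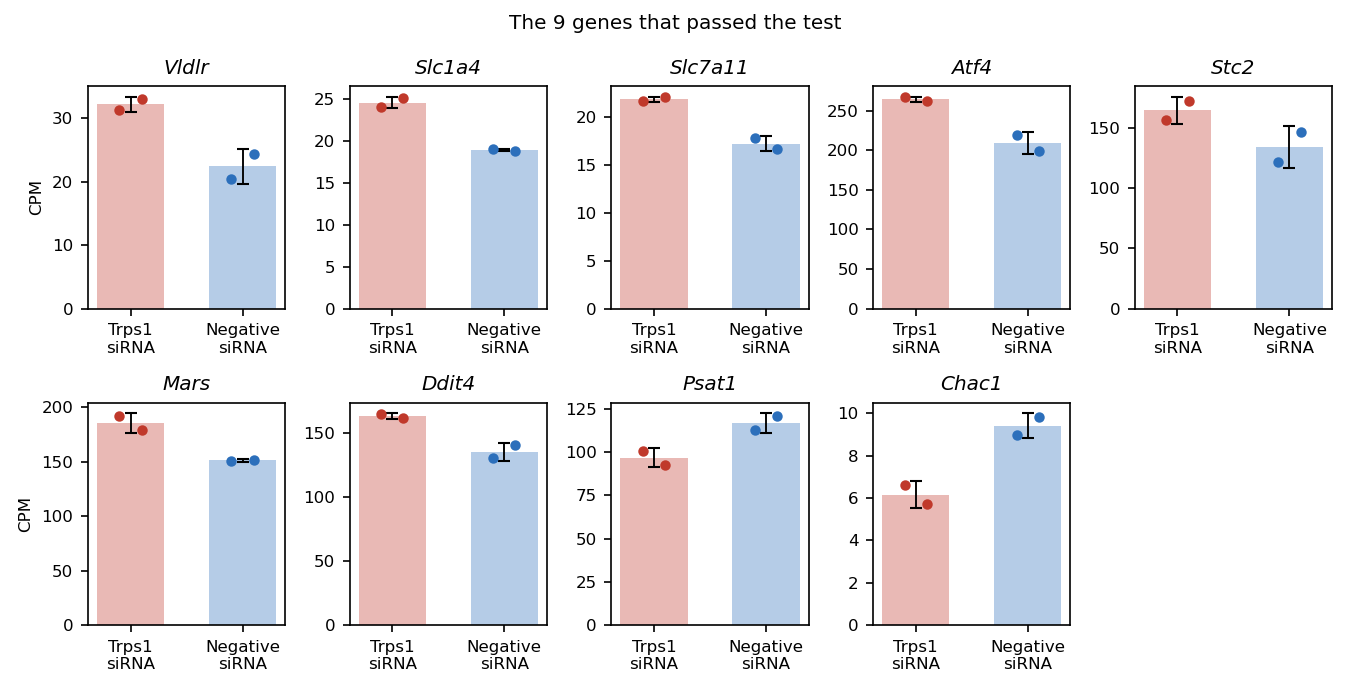
CPM of the 9 genes that passed the test, with 1 point per sample, bars for the mean and error bars for the SD (n = 2 per group), Trps1 siRNA in red and Negative siRNA in blue. In each panel the points of the groups do not overlap, and the panels run from Vldlr, which rose by 0.52 on the log2 scale, to Chac1, which fell by 0.62.

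Among the 16 cytosolic tRNA synthetases Mars rose and 15 did not pass the test. Mars (Mars1 in current naming; ENSMUSG00000040354, chromosome 10, 127296221 to 127311786, minus strand, GRCm38) encodes methionyl-tRNA synthetase. It had 192 and 179 CPM with Trps1 siRNA against 150.4 and 152 CPM with Negative siRNA, a rise of 0.29 ± 0.06 on the log2 scale (edgeR adjusted p = 0.00102). The call held in all 12 alternatives, with adjusted p-values of 6.96e-06 to 0.0153. Mars and Ddit3 are neighbours whose exons overlap by 68 bases on opposite strands, and the use of strand in counting is unknown here. Mars had 3429 and 3888 reads with Trps1 siRNA and 3023 and 3898 with Negative siRNA, against 387 and 531 reads with Trps1 siRNA and 375 and 505 with Negative siRNA for the whole of Ddit3.

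edgeR, DESeq2 and limma voom called 0 of the 16 synthetases lower, with 1 at an unadjusted p under 0.05, Vars. Of all genes tested, edgeR called 6.00% lower. Excluding Mars, the synthetases' log2 fold changes ran from 0.16 for Iars down to -0.15 for Vars, with an SE of 0.06 to 0.07 each. Iars, for isoleucine, had 129 and 133 CPM with Trps1 siRNA against 114 and 120.4 CPM with Negative siRNA (edgeR adjusted p = 0.0844, and 0.0343 to 0.501 over the alternatives). Cars, for cysteine, had 62.6 and 64.1 CPM with Trps1 siRNA against 59.8 and 53.4 CPM with Negative siRNA (edgeR adjusted p = 0.169), and shares 211 exon bases with Gm15580. Vars, for valine, had 106 and 99.2 CPM with Trps1 siRNA against 115 and 112 CPM with Negative siRNA (edgeR adjusted p = 0.117). In Iars and Cars both Trps1 siRNA samples lay above the controls and in Vars both lay below.

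Aars, Eprs and Yars, for alanine, for glutamate with proline and for tyrosine, had both Trps1 siRNA samples above the controls, with log2 fold changes of 0.11, 0.10 and 0.10 (SE 0.06 each). Aars shares 1326 exon bases with Exosc6 on the same strand, out of 9282 exon bases in all, and how reads on the shared stretch were counted is unknown here. Lars, Sars, Rars, Kars and Tars, for leucine, serine, arginine, lysine and threonine, had both Trps1 siRNA samples below both controls, with log2 fold changes of -0.04, -0.07, -0.10, -0.11 and -0.13 (SE 0.06 each). Gars, Hars, Nars and Wars, for glycine, histidine, asparagine and tryptophan, had overlapping groups and log2 fold changes of -0.01, -0.07, -0.06 and 0.01. Hars shares 195 exon bases with Hars2, and Yars 30 with C77080.

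Levels per length varied less among the synthetases than among the ATF4 response genes. Length here is all annotated exon bases of a gene, merged over its transcripts, so these levels depend on the annotation. The mean over all samples ran from 9.11 CPM per kilobase of exon for Cars to 51.7 for Nars, and that of the ATF4 response genes from 1.39 for Pycr1 to 199 for Slc3a2. Of the synthetases in the set, Eprs, Iars, Lars, Mars, Rars and Kars belong to the multisynthetase complex. Of these 6, Mars rose and 5 did not pass the test (16.7% called, beside 11.2% of all genes tested), and their median log2 fold change was 0.03. The other 10 synthetases had a median of -0.03.

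**Figure D3:**
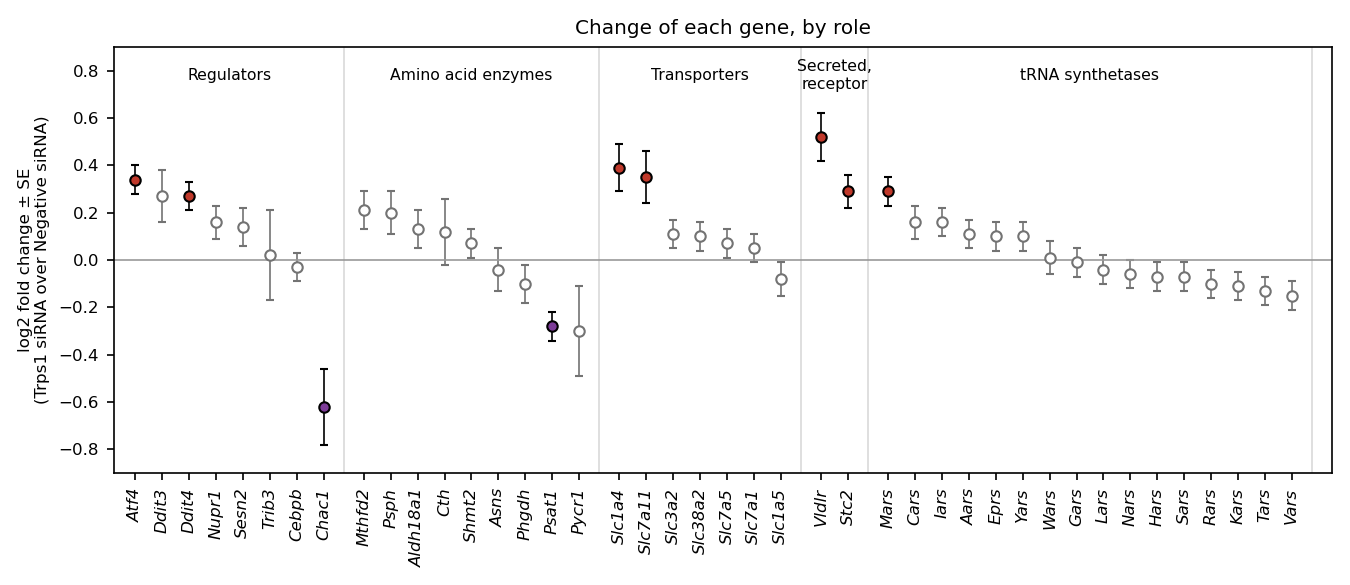
Log2 fold change of each of the 42 genes (Trps1 siRNA over Negative siRNA) with its SE, grouped by role and ordered by size. Filled points passed the test, red for those that rose and purple for those that fell, and open points did not. Among the synthetases Mars at 0.29 stands above a line of open points from 0.16 down to -0.15.

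The authors' deposited table, which lists 780 genes, holds 5 of the 42. In the authors' deposited table the log2 fold changes were 0.34 for Atf4, 0.27 for Ddit4, 0.29 for Mars, 0.52 for Vldlr and -0.28 for Psat1. Their adjusted p-values in the authors' deposited table were 5.63e-05 for Atf4, 0.0163 for Ddit4, 0.00401 for Mars, 0.00149 for Vldlr and 0.0127 for Psat1.

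The genes around ATF4 in its pathway were taken from lists of 98 tested genes, of which 9 passed the test, 7 higher and 2 lower (9.18% called, beside 11.2% of all genes). Of 14 kinases and regulators of the response to eIF2 phosphorylation, 1 rose. Ppp1r15a, which encodes GADD34, the stress-induced subunit that directs a phosphatase to eIF2, had 78.2 and 77.3 CPM with Trps1 siRNA against 63 and 64.1 CPM with Negative siRNA. Ppp1r15a rose by 0.29 ± 0.07 on the log2 scale (edgeR adjusted p = 0.00392), and the call held in all 12 alternatives. The kinases of eIF2 did not pass the test. Eif2ak4, or GCN2, the sensor of uncharged tRNA, came nearest, with 27.8 and 29.2 CPM with Trps1 siRNA against 24.8 and 22 CPM with Negative siRNA (log2 fold change 0.29 ± 0.10, edgeR adjusted p = 0.0557). It passed in 4 of the 12 alternatives, limma voom (0.043) among them, in a range of 0.0274 to 0.425. Eif2ak1, Eif2ak2 and Eif2ak3, the kinases of haem lack, viral RNA and unfolded protein, had log2 fold changes of -0.06, 0.06 and 0.12. These kinases were named for their role after their values were seen. Gcn1l1, the activator of GCN2 and the most abundant gene not called in this list, had 146 and 148 CPM with Trps1 siRNA against 158 and 130.2 CPM with Negative siRNA.

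Of 19 tested partners and other genes linked to ATF4, 3 rose. Atf5, a leucine zipper factor under translational control like that of Atf4, had 179 CPM in both Trps1 siRNA samples against 152 and 140.1 CPM with Negative siRNA. Gpt2, a mitochondrial enzyme that exchanges amino groups between alanine and glutamate, had 1434 and 1589 CPM with Trps1 siRNA against 1158 and 1226 CPM with Negative siRNA. Atf5 and Gpt2 had log2 fold changes of 0.29 ± 0.06 and 0.34 ± 0.06 (edgeR adjusted p = 0.00118 and 0.000442). Slc6a9, a glycine carrier, had 46.6 and 45.2 CPM with Trps1 siRNA against 41.4 and 35 CPM with Negative siRNA (log2 fold change 0.27 ± 0.09, edgeR adjusted p = 0.0396). The call of Slc6a9 ended in 5 of the 12 alternatives, in a range of adjusted p from 0.00601 to 0.498, which was reached without sample 2 of Negative siRNA (log2 fold change 0.15). It also ended without Trps1 siRNA sample 1 (0.136) or sample 2 (0.123). The call of Atf5 ended in 1, without sample 2 of Negative siRNA (0.0734), in a range from 5.26e-06. Atf5 shares 82 exon bases each with Il4i1 and Nup62. Slc6a9 shares 1429 exon bases with Ccdc24 on the opposite strand. Got1, the cytosolic aspartate aminotransferase and the most abundant gene not called here, had 194 and 218 CPM with Trps1 siRNA against 212 and 213 CPM with Negative siRNA.

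Of 13 genes of serine, glycine and one-carbon metabolism outside the set, 2 rose and 1 fell. Among those that rose, Aldh1l2, a mitochondrial folate enzyme that yields NADPH, had 21.2 and 21.5 CPM with Trps1 siRNA against 16.2 and 15.2 CPM with Negative siRNA. Gcsh, the carrier protein of the glycine cleavage system, had 322 and 314 CPM with Trps1 siRNA against 424 and 419 CPM with Negative siRNA. The log2 fold changes of Aldh1l2 and Gcsh were 0.45 ± 0.11 and -0.41 ± 0.06 (edgeR adjusted p = 0.00802 and 2.69e-05). Aldh1l2 shares 1056 exon bases with D10Wsu102e on the opposite strand, and its call ended without Negative siRNA sample 2 (0.0713) and without Trps1 siRNA sample 2 (0.0728), in a range from 0.0023. Aldh1l1, the cytosolic relative of Aldh1l2, had 255 and 234 CPM with Trps1 siRNA against 245 and 225 CPM with Negative siRNA, with overlap.

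Of 8 cytosolic synthetases and cofactors outside the set, edgeR, DESeq2 and limma voom called 0, where edgeR called 11.2% of all genes tested. At an unadjusted p under 0.05 there was 1, Eef1e1, named after its value was seen, and the median log2 fold change was -0.04. Qars, for glutamine, the most abundant of them, had 167 and 153 CPM with Trps1 siRNA against 169 and 159 CPM with Negative siRNA. Of 17 mitochondrial tRNA synthetases 1 rose, Fars2, for phenylalanine, with 28.7 and 27.6 CPM with Trps1 siRNA against 24 and 21.1 CPM with Negative siRNA (log2 fold change 0.32 ± 0.10, edgeR adjusted p = 0.0341). The call of Fars2 ended in 5 of the 12 alternatives, among them those without Negative siRNA sample 2 (0.34), Trps1 siRNA sample 1 (0.124) or Trps1 siRNA sample 2 (0.103), in a range from 0.0132 to 0.34. Fars2 shares 501 exon bases with Nrn1 on the opposite strand.

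Of 27 genes of mTORC1 itself and of the amino acid sensing upstream of it, 1 fell. Rptor, which encodes the mTORC1 scaffold Raptor, had 50 and 50.5 CPM with Trps1 siRNA against 68.9 and 68.2 CPM with Negative siRNA. Rptor fell by 0.45 on the log2 scale, with an SE of 0.07 (edgeR adjusted p = 7.49e-05). edgeR, DESeq2 and limma voom called 0 of the 27 higher, with 1 at an unadjusted p under 0.05. Of all genes tested, edgeR called 5.24% higher. Sec13, the most abundant gene not called in this list and a subunit of the GATOR2 complex, had 157 and 162 CPM with Trps1 siRNA against 158 and 159 CPM with Negative siRNA.

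Promoter sequence was compared between members because ATF4 acts through the C/EBP-ATF response element. The letters TGATGNAA, searched on both strands from 250 bases before to 50 after each RefSeq start (GRCm38.p6), were present in 13 of the 32 members with a promoter, which is 40.6%, and in 4.51% of all 27025 genes with one. They were found in 8 of 23 ATF4 response genes and in 5 of 9 synthetases. The members were listed for their link to ATF4, which acts through this element. The higher share is therefore not independent of that choice and was not tested. A match is a description of letters in this window and not a measured binding site. Besides the copies in Slc7a11 and Chac1 shown above, windows of 30 bases around the element are given for the members below in the direction of the element, with the element in capitals, to let the flanks be compared.

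Vldlr: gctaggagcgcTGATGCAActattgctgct

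Slc1a4: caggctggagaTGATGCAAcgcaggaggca

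Nupr1: caagccctgtcTGATGCAAtctggcccttt

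Trib3: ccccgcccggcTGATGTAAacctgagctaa

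Asns: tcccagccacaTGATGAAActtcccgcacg

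Pycr1: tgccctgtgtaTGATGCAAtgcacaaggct

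Iars: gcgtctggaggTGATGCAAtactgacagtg

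Yars: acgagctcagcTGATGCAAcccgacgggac

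Gars: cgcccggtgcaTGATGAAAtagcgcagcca

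Tars: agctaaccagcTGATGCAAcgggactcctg

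The Vldlr element belongs to 1 of its 2 RefSeq starts and lies 200 bases upstream of it (chr19:27216809-27216838). It is inside the annotated gene, which begins at 27216484 on the plus strand. That of Slc1a4 spans the start itself (chr11:20332699-20332728). Those of Trib3, Iars and Yars begin 15, 8 and 4 bases after the start.

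Calls were counted in members with and without the element, beside 11.2% called among all genes tested, and whether they differ was not tested. Of the 13 members with it, 3 rose (Slc7a11, Slc1a4 and Vldlr), 1 fell (Chac1) and 9 did not pass the test, with log2 fold changes from -0.62 to 0.52 and a median of 0.10. Of the 19 members with a promoter and without it, 4 rose (Atf4, Ddit4, Stc2 and Mars), 1 fell (Psat1) and 14 did not pass the test, with a median of 0.11. Vldlr and Chac1, at the upper and the lower end of the 42 genes, both hold 1 copy about as far upstream of a start, with the first base at -200 and at -193. The Vldlr copy, however, lies downstream of the first annotated base of its gene. Synthetases with the element, such as Tars at -0.13 ± 0.06 and Iars at 0.16 ± 0.06, did not pass the test.

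**Figure D4:**
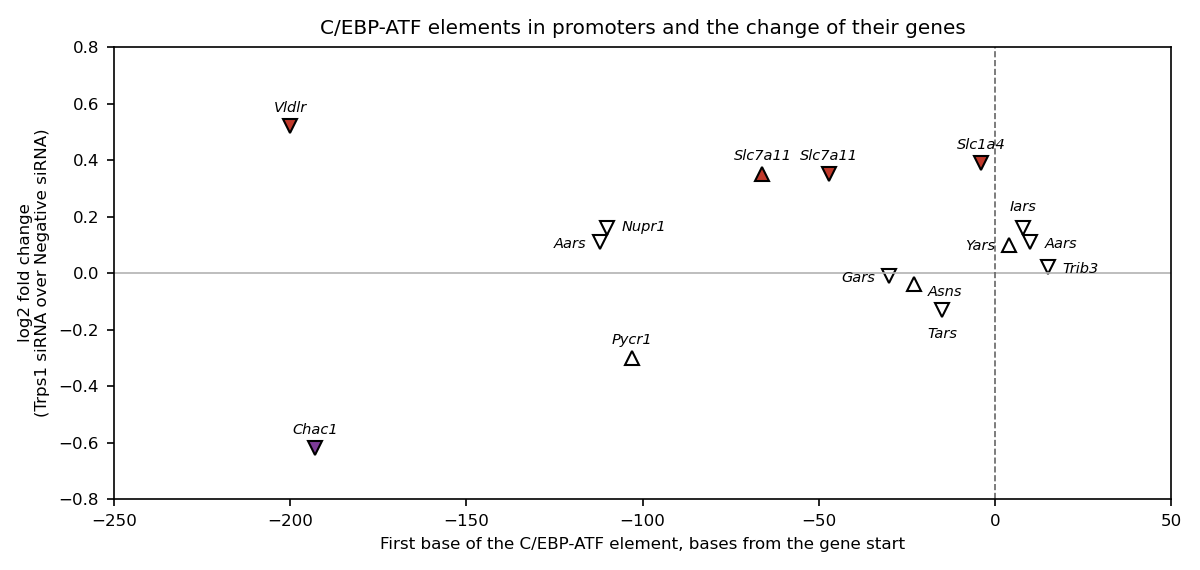
Position of each C/EBP-ATF element in the promoters of the 13 members that hold one, as bases from the RefSeq start to the first base of the element, against the log2 fold change of the gene (Trps1 siRNA over Negative siRNA). Triangles that point up are on the strand of the gene and those that point down on the opposite strand. Filled symbols passed the test, red for a rise and purple for a fall. Vldlr at 0.52 and Chac1 at -0.62 lie at nearly the same distance from a RefSeq start, which for Vldlr is not the only one. The Vldlr element lies inside the annotated gene.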

How the data were processed

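RNA sequencing of total RNA from Leydig cells gave 4 libraries, 2 per group, grouped by the titles in the labels. The authors deposited raw read counts per gene, made with HISAT2 and featureCounts on GRCm38 (mm10), per the submitters' processing notes. Tool versions, strand use and multiple-match handling were not stated in those notes. The authors also deposited a table with a normalised signal per group (mean read counts), log2 fold changes and p-values, per the file headers, whose test is not stated. Symbols, positions and exon lengths came from GENCODE M21 (GRCm38), and promoters from RefSeq (GRCm38.p6), where 32 of 42 members matched.

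Counts of 14701 genes kept by filterByExpr (minimum count 10) were fitted with edgeR 4.0.16 (R 4.3.3), TMM scaling, glmQLFit with robust estimation and glmQLFTest, with group as the only term and 2 residual degrees of freedom. Calls were made at a p under 0.05 after Benjamini-Hochberg adjustment over all genes. The SE is the fold change on the log2 scale divided by the square root of F. CPM used TMM-scaled totals. Alternatives were RLE factors, plain totals, no filter, a filter at a mean of 5 CPM, limma 3.58.1 voom, DESeq2 1.42.0, no robust estimation, the sample number as a block, and each sample left out. The fit was tested on simulated data. Replicates differed by more than sampling noise, with a mean chi-square per gene of 4.56 between the Trps1 siRNA samples and 7.58 between the Negative siRNA samples. Members and lists were chosen with earlier results of these data known. The text names all members, every called gene of the further lists and the most abundant gene of each list that was not called. The values of 1 called gene of the further lists and some promoter windows are not reported here. Of the 42 members 9 share exon sequence with another gene.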

Additional observations from a re-analysis of the deposited data

How the results depend on the processing

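Over 12 alternatives, RLE factors changed no call and no sign among the genes named. All genes called numbered 1652 in the reported fit, 991 with DESeq2 and 871 to 1675 with a sample left out. ATF4 response genes called lower numbered 2, with 1 in DESeq2 and 0 to 2 with a sample left out, and those called higher numbered 6, with 3 to 5 with a sample left out. The lowest of these came without sample 2 of Trps1 siRNA. Further pathway genes called higher numbered 7, with 4 to 9 with a sample left out.

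The sample numbers share no stated source, and the deviations of same-numbered samples correlated at 0.0356 over genes. With the replicate block 2285 genes were called, 2 synthetases higher and 4 further pathway genes lower, and no call of a member was lost.

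Genes that did not pass the test changed sign in some fits. Gars was 0.004 with plain totals and Wars -0.004 without a filter. With a sample left out the log2 fold changes ran from -0.045 to 0.024 for Gars, -0.059 to 0.064 for Wars, -0.22 to 0.26 for Trib3, -0.003 to 0.15 for Slc7a5, -0.12 to 0.009 for Nars, -0.13 to 0.070 for Asns, -0.15 to 0.079 for Cebpb, -0.25 to 0.027 for Phgdh, -0.098 to 0.026 for Qars, -0.13 to 0.039 for Got1, -0.11 to 0.17 for Gcn1l1, -0.006 to 0.12 for Aldh1l1 and -0.017 to 0.032 for Sec13. The cause was not tested. With 2 samples per group and reads of 78 or more per member, depth limits Pycr1, Chac1 and Trib3 most.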

Other observations

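Lars2, the mitochondrial leucyl-tRNA synthetase, had the largest SE of the 17 genes of its list. It had 4065 and 7034 reads, or 228 and 324 CPM, with Trps1 siRNA, against 540 and 2690 reads, or 26.9 and 105 CPM, with Negative siRNA. The groups did not overlap, but the log2 fold change of 2.05 ± 0.92 did not pass edgeR's quasi-likelihood test (adjusted p = 0.394), while the authors' deposited table gives 2.06 with an adjusted p of 0.0137. Leaving out Negative siRNA sample 1 gave a change of 1.39 and leaving out Negative siRNA sample 2 one of 3.36. Lars2 passed in those alternatives, without robust estimation (0.00125) and with the sample number as a block, but not with DESeq2 (0.152) or limma voom (0.342), in a range of adjusted p from 8.61e-282 to 0.753. The cause of the spread was not tested.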
